A study of Homo sapiens with 6 samples.

Results

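Antigen presentation is described here through 31 genes that serve display of peptides on major histocompatibility complex (MHC) class I and class II molecules, their transcriptional regulators, and 2 stress ligands related to class I. The members were chosen by gene symbol, and all 31 had a row of their own among the 25548 rows of the deposited table. They comprise 15 genes of the class I pathway, 9 of the class II pathway, 5 regulators and the ligands MICA and MICB. The cells were A375, an established human melanoma line with mutant BRAF, grown in DMEM with serum. One group of 3 samples was exposed for 6 h to 1 µM BMH-21, a compound that blocks transcription of ribosomal RNA by RNA polymerase I. The other group of 3 samples received the solvent DMSO and is titled 0 h, so drug and added culture time cannot be told apart. The study asked how the transcriptome of melanoma cells differs after RNA polymerase I inhibition.

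Nucleated cells show fragments of their own proteins on MHC class I, in which a polymorphic heavy chain pairs with beta-2 microglobulin. Proteasomes cut the peptides, the TAP transporter brings them into the endoplasmic reticulum, and aminopeptidases trim them before loading. MHC class II normally belongs to professional antigen-presenting cells and displays peptides from endosomes, although melanomas can express it without immune cells around. CIITA is the master coactivator of class II genes. It does not bind DNA itself but docks onto RFX and NF-Y proteins at their promoters, while its relative NLRC5 does the same for class I genes.

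The table gave 3 values per group in FPKM, a count of sequenced fragments corrected for transcript length and library size. Although titled as replicates, they behaved as 1 estimate and its bounds: for all 31 members, in both groups, the first value was the midpoint of the others within a relative tolerance of 0.0001. Levels are therefore given as the estimate with the authors' bounds in parentheses. Values of single libraries were not analysed here, so no replicate spread, SD or p-value exists for any difference, and the read depth is unknown. Intervals are called separate where the bounds of the groups did not overlap, which describes the table and is no test. Because the RNA came from whole cultures, more transcript per cell and more cells with the transcript cannot be told apart.

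Of 31 members, 30 reached 1 FPKM in control or BMH-21 and are called measured, and 4 were higher in BMH-21 with separate intervals: CIITA, MICB, MICA and TAP1. Among all 13074 measured rows, 4.08% were separate and higher and 3.41% were separate and lower. No member was separate and lower, and 26 overlapped. The same 4 members, and no other, passed 1.5-fold on the scale of log2(FPKM + 1), where the share over all rows was 3.99% higher and 2.87% lower. Estimates were above control for 24 of the 30, against 55.4% of all rows, and below it for 6, against 44.6%. Each difference has a half-width, combined in quadrature from the bounds of control and BMH-21 on the log2 scale. When a difference only had to exceed its half-width, 7 members were higher, against 7.66% of all rows, and 0 were lower, against 7.29%. ERAP2, one of these 7 and of the 24 above control, was measured through the BMH-21 group alone. The median log2(FPKM + 1) difference of the members was 0.16, against 0.04 over all measured rows. With short RNA rows left out and the groups rescaled to equal sums, the separate rows split differently, 40.4% of them being higher in place of 54.5%, and TAP1 was no longer separate.

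**Figure D1:**
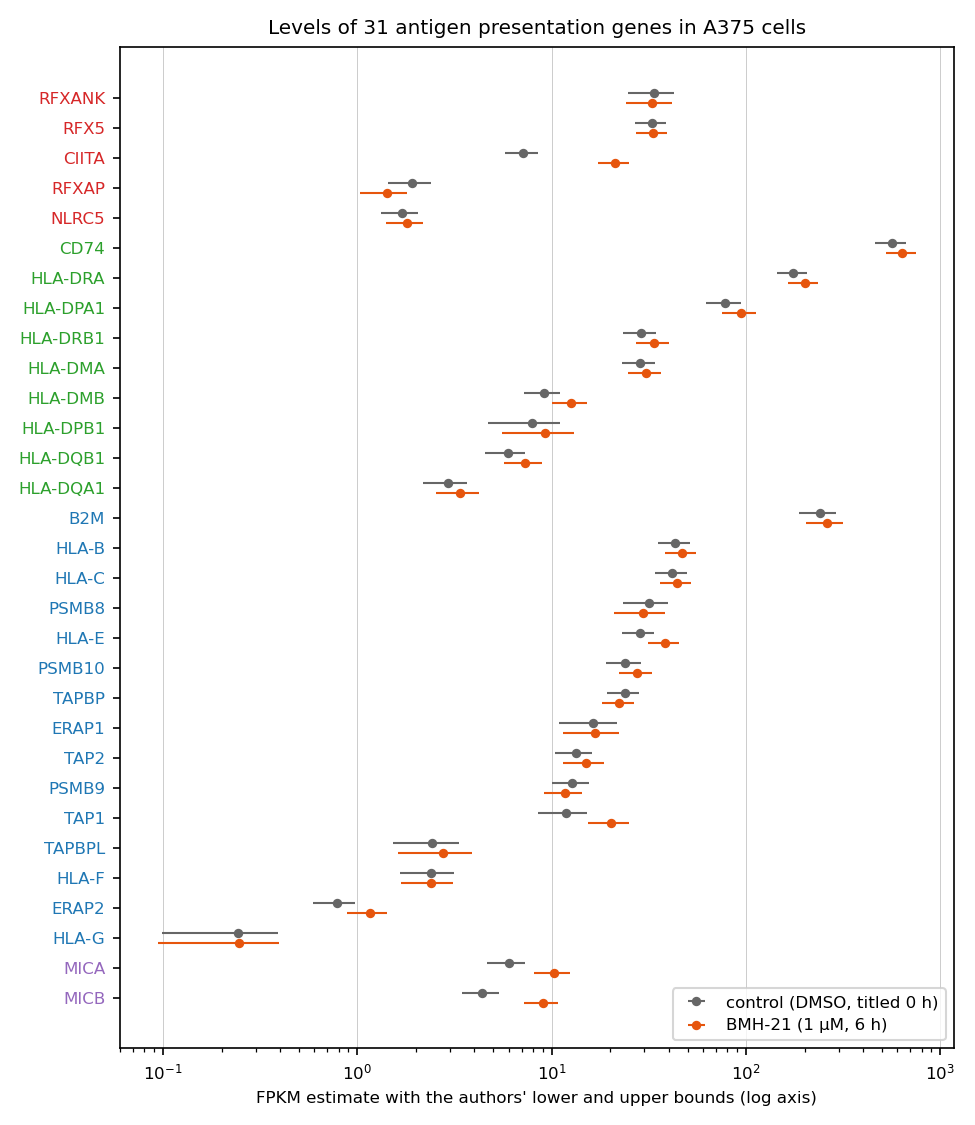
FPKM estimates (points) and the authors' lower and upper bounds (bars) of the 31 members on a log axis, in control (grey) and BMH-21 (orange). Gene names are coloured by regulators (red), class II (green), class I (blue) and NKG2D ligands (purple). CIITA, TAP1, MICA and MICB are the rows whose bars do not overlap, and CD74 has the highest level in both groups.

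The promoters of MICA and MICB are shown first because these neighbouring paralogs, which both stood above control, carry alike upstream sequence. Each run gives the 250 bases before the annotated start from RefSeq, build GRCh38.p14, at chr6:31403345-31403594 (plus strand) for MICA and chr6:31497895-31498144 (plus strand) for MICB. Capitals mark GAANNTTC, the core of a heat shock element, and ATTGG, which is CCAAT on the other strand.
MICA: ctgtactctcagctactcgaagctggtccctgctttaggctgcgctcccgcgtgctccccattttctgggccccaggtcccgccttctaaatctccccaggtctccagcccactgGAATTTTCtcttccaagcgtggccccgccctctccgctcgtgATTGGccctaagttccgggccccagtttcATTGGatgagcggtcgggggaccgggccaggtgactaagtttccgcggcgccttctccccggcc
MICB: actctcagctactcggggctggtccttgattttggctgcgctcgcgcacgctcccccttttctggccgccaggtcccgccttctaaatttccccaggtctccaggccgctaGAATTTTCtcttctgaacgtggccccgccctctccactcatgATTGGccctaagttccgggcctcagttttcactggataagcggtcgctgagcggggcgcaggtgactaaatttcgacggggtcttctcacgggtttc
In a global alignment, 210 of 246 aligned bases were identical, or 85.4%. Both windows held GAATTTTC, and MICA held ATTGG at 2 places where MICB held it at 1. Over 35116 RefSeq windows of this length, 5.78% held GAANNTTC, which reads the same on both strands, and 32.0% held CCAAT on either strand. Among the 39 windows matched to 27 of the 31 members, GAANNTTC was in 12.8% and CCAAT in 46.2%. GAANNTTC was also in windows of HLA-DQA1, HLA-DQB1 and HLA-G, none of them separate, and CCAAT was in those of 18 members, 3 of them separate. These 3 were MICA, MICB and TAP1, which are all the separate members that had a window. The motif GGGCGG, also searched on either strand, was in 42.6% of all windows and 48.7% of member windows. It was found for 14 members, the same 3 among them.

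TAP1 and PSMB9 are shown next because they lie head to head, with 488 bases between their annotated starts, yet only TAP1 was separate. The TAP1 window, from its most upstream annotated start, is chr6:32853705-32853954 (minus strand) and the PSMB9 window chr6:32853942-32854191 (plus strand), both in GRCh38.p14. Capitals in TAP1 mark 2 overlapping matches to GAAANNGAA on the other strand, from the core of the interferon-stimulated response element, and the NF-kappaB motif GGACTTTCC. Capitals in PSMB9 mark the 13 bases that both windows share.
TAP1: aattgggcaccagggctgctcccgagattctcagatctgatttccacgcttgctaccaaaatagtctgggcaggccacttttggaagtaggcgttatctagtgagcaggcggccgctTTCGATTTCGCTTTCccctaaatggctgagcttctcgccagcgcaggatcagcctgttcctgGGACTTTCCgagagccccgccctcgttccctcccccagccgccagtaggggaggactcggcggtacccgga
PSMB9: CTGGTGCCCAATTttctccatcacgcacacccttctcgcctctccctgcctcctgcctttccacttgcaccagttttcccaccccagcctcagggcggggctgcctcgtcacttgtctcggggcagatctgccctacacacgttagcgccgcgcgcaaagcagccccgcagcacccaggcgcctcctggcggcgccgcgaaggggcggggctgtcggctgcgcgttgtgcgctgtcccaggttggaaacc
Neither motif was found in the PSMB9 window on either strand. Some members have several annotated starts and so several windows. GAAANNGAA was in 12 of the 39 member windows (30.8%), each from another gene, against 6.88% of all windows. The 12 genes were all measured, among them B2M, TAP2, CD74 and HLA-DRB1, and TAP1 was the 1 with separate intervals. GGACTTTCC was in a window of TAP1 and of B2M, against 0.333% of all windows. The motifs were picked with the sequences and the values in view, and a match is a run of letters, not a shown binding site. No window was used for CIITA, NLRC5, HLA-DRA and HLA-E.

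CIITA stood furthest above control of all members. Its level was 7.10 FPKM (5.72 to 8.48) in control and 21.1 FPKM (17.3 to 24.9) in BMH-21, so the lowest bound with the drug was above the highest bound without it by 8.78 FPKM. The estimate was 2.97-fold higher, a log2(FPKM + 1) difference of 1.44 ± 0.35, given with its half-width. That difference was number 129 from the top among the 13074 measured rows. Rows other than short RNAs whose mean level lay within 2-fold of that of CIITA numbered 4978. Of these, 24 had a difference at least as large, with CIITA itself included in both counts. The RefSeq annotation has DEXI overlapping CIITA, and DEXI was at 7.09 FPKM (4.98 to 9.21) and 7.82 FPKM (5.68 to 9.97), with intervals that overlap.

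NLRC5 and the subunits of the RFX complex all had overlapping intervals. Separate rows made up 4.08% higher and 3.41% lower of all measured rows, so a list this short can hold none. NLRC5, the class I coactivator of the same protein family, was at 1.69 FPKM (1.32 to 2.05) in control and 1.79 FPKM (1.41 to 2.18) in BMH-21. RFX5, the subunit of the RFX complex that contacts the X box of MHC promoters, was at 32.7 FPKM (26.7 to 38.6) and 33.2 FPKM (27.2 to 39.3). Both pairs of intervals overlapped over most of their length. RFXANK, the ankyrin-repeat subunit, was at 33.7 FPKM (24.8 to 42.5) and 32.8 FPKM (24.1 to 41.5). RFXAP, the remaining subunit, had the lowest difference of any member, -0.27 ± 0.33, at 1.92 FPKM (1.45 to 2.39) against 1.42 FPKM (1.03 to 1.80) in BMH-21. The median over the 5 regulators was 0.02, and it lay below 0 under each of 3 other scalings.

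The class II genes, which CIITA controls, were already expressed in control cells. All 9 had estimates above control in BMH-21, against 55.4% of all measured rows. None was separate, against 4.08% higher and 3.41% lower over all measured rows. CD74, the invariant chain that fills the class II groove until peptide arrives, was the most abundant member at 561 FPKM (460 to 662) in control and 636 FPKM (522 to 750) in BMH-21. HLA-DRA, the invariable alpha chain of HLA-DR, was at 175 FPKM (144 to 207) and 200.02 FPKM (164 to 236). For both genes the intervals overlapped, with ratios of 1.13 and 1.14. HLA-DPA1 was at 78.1 FPKM (62.2 to 94.0) and 93.7 FPKM (74.8 to 113), and HLA-DRB1 at 28.8 FPKM (23.2 to 34.3) and 33.7 FPKM (27.3 to 40.1). The remaining chains had lower levels: HLA-DPB1 was at 7.90 FPKM (4.72 to 11.1) and 9.27 FPKM (5.52 to 13.0). HLA-DQB1 was at 5.93 FPKM (4.53 to 7.33) and 7.32 FPKM (5.67 to 8.97), and HLA-DQA1 at 2.92 FPKM (2.17 to 3.67) and 3.37 FPKM (2.53 to 4.21). The 6 chains thus had ratios of BMH-21 to control between 1.14 and 1.23, a narrow range beside the width of their intervals.

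HLA-DM, the heterodimer that exchanges the invariant chain fragment for peptide, had 1 chain at each end of the class II range of differences. HLA-DMB had the highest difference, at 9.10 FPKM (7.20 to 11.0) in control and 12.6 FPKM (10.0 to 15.2) in BMH-21, a difference of 0.43 ± 0.39 that just exceeded its half-width. HLA-DMA had the lowest difference, at 28.5 FPKM (22.9 to 34.1) and 30.6 FPKM (24.6 to 36.5). The class II median was 0.21 on the log2(FPKM + 1) scale, against 0.04 over all measured rows. Estimates of the 9 genes summed to 898 FPKM in control and 1027 FPKM with BMH-21, a ratio of 1.14, beside the 2.97 of CIITA. Per FPKM of CIITA there were 24.7 FPKM of HLA-DRA in control and 9.50 FPKM in BMH-21, and 79.0 against 30.2 FPKM of CD74. All 9 differences stayed above 0 under 3 other scalings, the lowest being 0.0048 for HLA-DRA under quantile normalization.

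**Figure D2:**
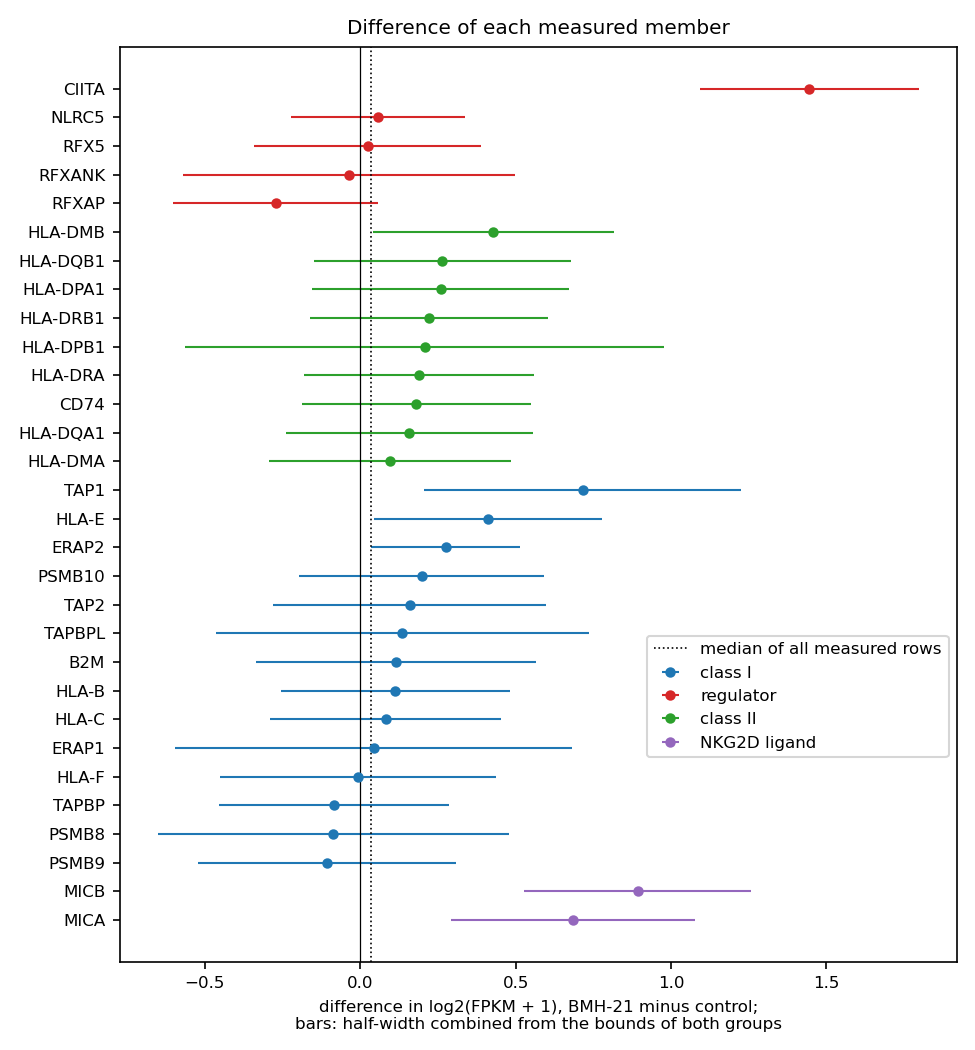
Difference in log2(FPKM + 1), BMH-21 minus control, for the 30 measured members (points), with bars for the combined half-width and a dotted line at the median of all measured rows. CIITA lies at 1.44, the 9 class II genes lie between 0.10 and 0.43, and the class I genes other than TAP1 lie between -0.11 and 0.41.

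None of the 4 class I heavy chains measured here had separate intervals. The shares over all measured rows were 4.08% separate and higher and 3.41% separate and lower, so so few genes can hold none. HLA-B, a classical heavy chain that presents peptides to CD8 T cells, was at 43.3 FPKM (35.3 to 51.3) in control and 46.9 FPKM (38.5 to 55.4) in BMH-21. HLA-C, which is also a ligand of killer cell receptors, was at 41.8 FPKM (34.1 to 49.6) and 44.3 FPKM (36.3 to 52.4). Both had ratios under 1.1 and overlapping intervals. HLA-E, the non-classical chain recognised by NKG2A, was higher by 0.41 ± 0.37 on the log2(FPKM + 1) scale, at 28.4 FPKM (23.1 to 33.6) and 38.1 FPKM (31.2 to 45.0), and its intervals overlapped although the difference exceeded its half-width. HLA-F was at 2.40 FPKM (1.65 to 3.14) and 2.38 FPKM (1.67 to 3.09). HLA-G, otherwise known from placenta, was the 1 member under 1 FPKM in both groups, at 0.244 FPKM (0.0993 to 0.389) and 0.245 FPKM (0.0939 to 0.397). B2M, the shared light chain, was at 240 FPKM (187 to 292) and 260 FPKM (203 to 316), and so stood above every heavy chain named here in both groups. Its difference turned to -0.06 under quantile normalization.

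Of the transporter, TAP1 differed and its partner TAP2 overlapped. TAP1 was at 11.9 FPKM (8.51 to 15.2) in control and 20.1 FPKM (15.3 to 25.0) in BMH-21, 1.70-fold higher, with a difference of 0.72 ± 0.51. The gap between its bounds was 0.102 FPKM, the smallest of the 4 separate members. After scaling to a median ratio of 1 its upper control bound of 15.2 FPKM exceeded the lower BMH-21 bound of 14.9 FPKM. TAP2 was at 13.3 FPKM (10.4 to 16.2) and 15.0 FPKM (11.4 to 18.5), so the TAP1 to TAP2 ratio of FPKM was 0.893 in control and 1.35 in BMH-21. The antisense RNA PSMB8-AS1 overlaps TAP1 in the RefSeq annotation, and its row was at 0.723 FPKM (0 to 1.89) and 0.837 FPKM (0 to 2.20). TAPBP, the tapasin that bridges TAP to class I, was at 23.8 FPKM (19.3 to 28.2) and 22.3 FPKM (18.1 to 26.5). Its relative TAPBPL, a peptide editor outside the loading complex, was at 2.43 FPKM (1.52 to 3.34) and 2.77 FPKM (1.62 to 3.91). Neither differed beyond its half-width.

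The immunoproteasome, whose catalytic subunits replace those of the standard proteasome under interferon, had no separate member. PSMB9, the head-to-head neighbour, was at 12.7 FPKM (9.98 to 15.5) in control and 11.7 FPKM (9.17 to 14.3) in BMH-21. The TAP1 to PSMB9 ratio of FPKM was 0.932 in control and 1.71 in BMH-21. PSMB8, on the other flank of TAP1, was at 31.5 FPKM (23.3 to 39.7) and 29.6 FPKM (20.8 to 38.4), and PSMB10, which lies outside the MHC on chromosome 16, at 23.8 FPKM (18.9 to 28.7) and 27.5 FPKM (22.2 to 32.7). All 3 overlapped, with 2 estimates below and 1 above control. Over all measured rows, 4.08% were separate and higher and 3.41% separate and lower. Among the trimming enzymes, ERAP1 was at 16.3 FPKM (10.9 to 21.6) and 16.8 FPKM (11.5 to 22.1). ERAP2 was at 0.783 FPKM (0.589 to 0.977) and 1.16 FPKM (0.890 to 1.43), a difference of 0.27 ± 0.24, and counted as measured through the BMH-21 group alone. Over the 14 measured class I members the median difference was 0.11, against 0.04 over all measured rows, with TAP1 as the single separate member. Their estimates were above control for 10 and below it for 4, against 55.4% and 44.6% of all rows.

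MICA and MICB are stress-induced surface proteins that activate natural killer cells and some T cells through the receptor NKG2D, and both were separate and higher. MICA was at 5.99 FPKM (4.66 to 7.33) in control and 10.2 FPKM (8.10 to 12.4) in BMH-21, 1.71-fold higher, with a difference of 0.68 ± 0.39. MICB was at 4.40 FPKM (3.46 to 5.34) and 9.03 FPKM (7.23 to 10.8), 2.05-fold higher, with a difference of 0.89 ± 0.36. The MICB difference was the larger by its estimate, within the half-widths of both, and the contrast was not tested. The MICA level was above that of MICB in both groups, with overlapping bounds. Of the 50-base words in the longest coding transcript of MICA in GENCODE 29, 2.04% also occurred in a MICB transcript, and 1.38% the other way.

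**Figure D3:**
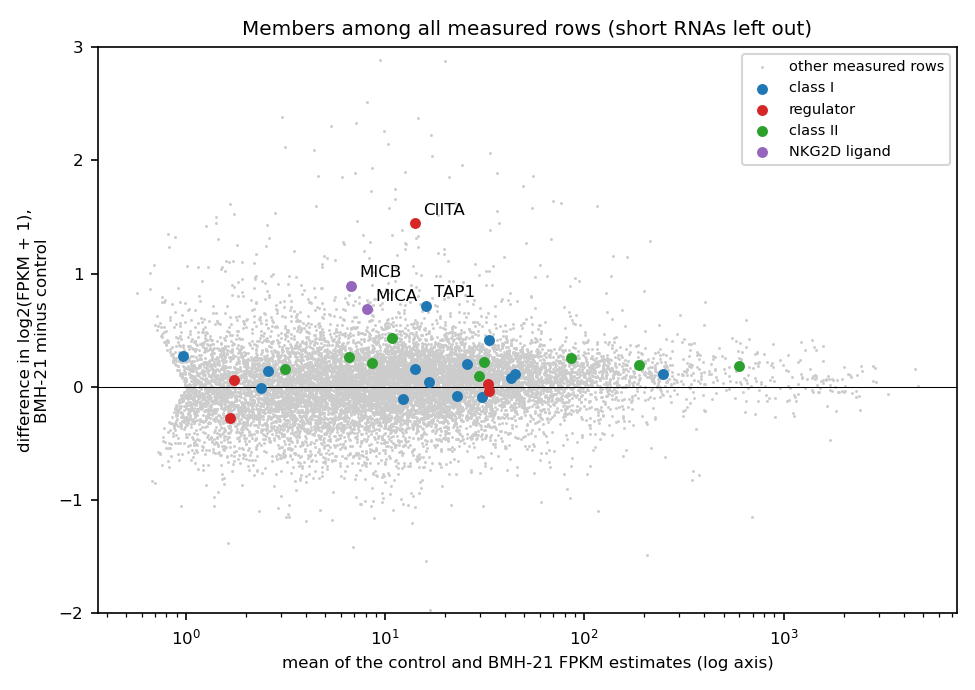
Mean FPKM of both groups (log axis) against the difference in log2(FPKM + 1) for measured rows other than short RNAs (grey) and the measured members (coloured by arm); 6 other rows lie outside the plotted range. CIITA, MICB, TAP1 and MICA sit above the bulk of rows of like level, and the class II genes lie between 0.10 and 0.43 over their whole range of level.

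Genes that share sequence can share fragments, and their assignment was not given in the sources used here. HLA-DQA1 shared 9.53% of its 50-base words with HLA-DQA2, HLA-DRB1 shared 8.64% with HLA-DRB5, and HLA-DQB1 shared 4.63% with HLA-DQB2. HLA-G shared 4.38% with HLA-E, and HLA-B and HLA-C shared 2.0% with each other. Words were compared only among the members, HLA-DRB5, HLA-DQA2 and HLA-DQB2, so sharing with any other gene was not counted. HLA genes are also highly polymorphic, so alleles that differ from the reference genome can lose fragments. Levels of HLA genes are uncertain for both reasons.

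Immune cells are the usual source of class II transcripts, so their markers were examined in the same table. Of 17 leukocyte markers, 16 were under 1 FPKM in both groups and 11 were under 0.1 FPKM in both. PTPRC, the pan-leukocyte marker CD45, was at 0.0116 FPKM in control and 0.00219 FPKM with BMH-21, and the B cell marker MS4A1 was at 0.00989 FPKM in control and listed at 0 in BMH-21. The exception was LYZ, which encodes lysozyme, at 4.39 and 4.88 FPKM, and the whole list summed to 5.34 and 5.93 FPKM. SOX10, a transcription factor of the melanocyte lineage, was at 97.0 FPKM (79.6 to 114) and 90.0 FPKM (74.2 to 106), with overlapping intervals. Of 12 melanoma markers 7 were measured, and 3 were separate and lower, against 3.41% of all measured rows. They were MITF at 8.06 and 5.31 FPKM, S100B at 28.7 and 17.8 FPKM and CSPG4 at 134 and 92.5 FPKM. MCAM was lower beyond its half-width, at 94.9 and 68.8 FPKM, and PAX3 had the highest difference of the list, at 7.02 and 8.19 FPKM. With short RNA rows left out, 4 of the markers were separate and lower. Pigmentation was represented by MLANA, PMEL, DCT, TYR and TYRP1, and none of them reached 1 FPKM. The part of these markers in the differences above was not tested.

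The route by which interferon-gamma induces CIITA had no separate member, against 4.08% higher and 3.41% lower over all measured rows. Of 12 listed genes 9 were measured, 7 with estimates above and 2 below control, against 55.4% and 44.6% of all rows. Their median difference was 0.15, against 0.04 over all measured rows. IRF1, which acts on the interferon-inducible CIITA promoter, was at 2.75 and 3.34 FPKM. Of the measured genes USF1, which binds the same promoter, had the highest difference, 0.25 ± 0.37, at 33.1 and 39.4 FPKM. The receptor chain IFNGR2 had the lowest at 37.0 and 32.1 FPKM. Of the 3 genes under 1 FPKM, PRDM1 was at 0.403 and 0.710 FPKM, with overlapping intervals. Its difference of 0.285 ± 0.201 exceeded its half-width. Those of SOCS1, 0.523 ± 0.529, and IRF8 did not exceed theirs. Among 12 cofactors of MHC promoters, KAT2B was separate and higher, at 8.06 FPKM against 11.9 FPKM with BMH-21. KAT2B encodes the acetyltransferase PCAF, and its intervals were no longer separate after scaling to a median ratio of 1. NFYA, a subunit of the NF-Y factor that binds CCAAT, had the lowest difference of these, -0.34 ± 0.34.

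Endosomal processing for class II had 2 separate members, both higher, among 8 measured of 13 listed symbols. Over all measured rows, 4.08% were separate and higher and 3.41% separate and lower. IFI30, the thiol reductase GILT that unfolds antigens in lysosomes, was at 30.4 FPKM in control and 54.8 FPKM with BMH-21, a difference of 0.83 ± 0.39. The cathepsin L gene, listed as CTSL1, was at 43.2 and 70.4 FPKM, a difference of 0.69 ± 0.37. The other 6 overlapped, by difference from CTSH at 4.45 and 3.63 FPKM to SPPL2A, the protease that clears the CD74 remnant, at 31.5 and 36.6 FPKM. HLA-DOA, which restrains HLA-DM, was at 2.38 and 2.30 FPKM.

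On the class I side neither 7 chaperones and proteasome activator subunits nor 6 peptidases held a separate member. Over all measured rows, 4.08% were separate and higher and 3.41% separate and lower, so lists this short can hold none. PSME2, an interferon-inducible proteasome activator subunit, had the highest difference of the first list at 66.7 and 81.0 FPKM, and the chaperone HSPA5 had the lowest at 92.5 and 68.8 FPKM, a difference of -0.42 ± 0.37 beyond its half-width. TPP2 had the highest difference of the peptidases at 22.2 and 26.3 FPKM, and THOP1 the lowest at 22.3 and 21.7 FPKM. Among class I-like molecules 4 of 6 were measured and all overlapped. AZGP1 had the lowest difference, -0.50 ± 0.38 and so beyond its half-width, at 3.05 and 1.87 FPKM. The highest was that of MR1, which presents vitamin metabolites, at 1.23 and 1.33 FPKM.

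The remaining NKG2D ligands, the ULBP and RAET1 genes, were at low level. Of 6, only ULBP2 at 3.97 and 5.34 FPKM and ULBP3 at 2.67 and 2.38 FPKM were measured, and both overlapped. Of the 4 under 1 FPKM, RAET1E was at 0.466 FPKM (0.186 to 0.746) and 0.985 FPKM (0.564 to 1.41). Its intervals overlapped, and its difference of 0.437 ± 0.417 just exceeded its half-width, while the others did not exceed theirs. Whether MICA and MICB differ in response from these ligands was not tested. Of 9 symbols for checkpoint ligands, 4 genes were measured and none was separate, against 4.08% higher and 3.41% lower over all measured rows. PVRL2 (nectin-2) had the highest difference at 16.2 and 17.9 FPKM and CD276 the lowest at 34.4 and 29.1 FPKM. CD274, which encodes PD-L1, was at 0.773 and 0.769 FPKM.

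**Figure D4:**
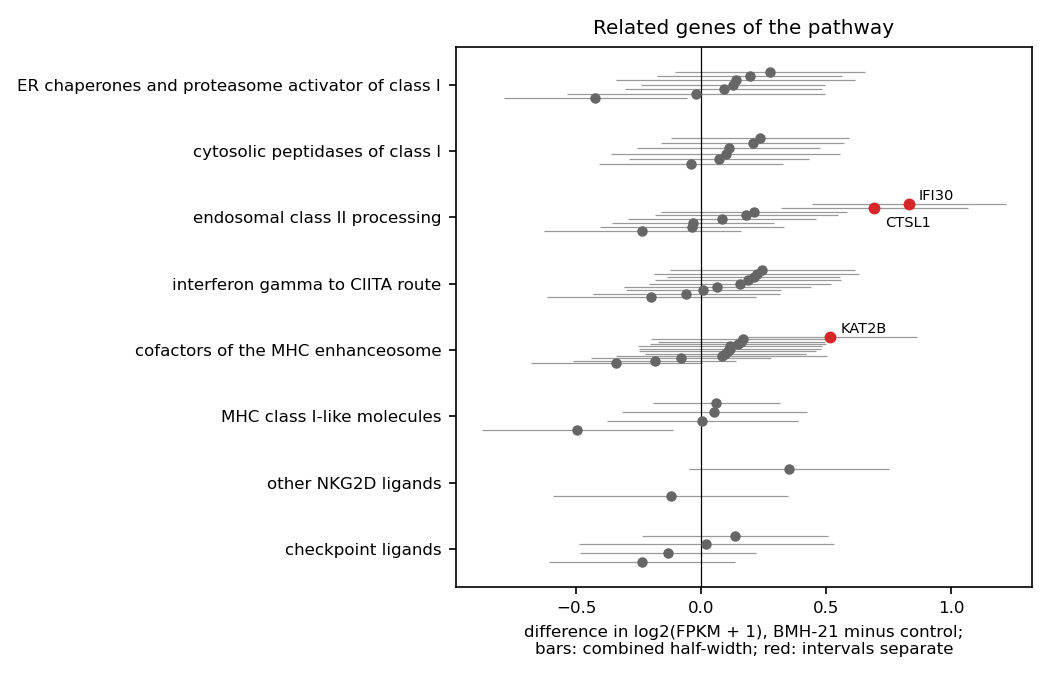
Difference in log2(FPKM + 1), BMH-21 minus control, of the measured genes in 8 related lists (points), with bars for the combined half-width. Red points mark genes with separate intervals, which are IFI30, CTSL1 and KAT2B, all above 0.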

How the data were processed

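RNA was extracted with Trizol and libraries were made with an Illumina stranded total RNA kit, per the labels' protocols. Groups came from the sample titles, 3 samples each. The authors deposited FPKM values in 1 table, and TopHat2, Cuffdiff 2.0 and build GRCh37 stand, with no roles or settings, per the submitters' processing notes. Their annotation was not given in the sources used here. The first value of a group was read as its estimate and the others as lower and upper bounds, whose confidence level is likewise not given.

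Differences were log2(FPKM + 1) in BMH-21 minus control on the authors' scaling, and folds are ratios of FPKM estimates. The half-width is the root of the summed squares of the half-widths of both groups. A row was measured if either estimate reached 1 FPKM. No test was possible. Every measured member is named. Of each related list, the highest, the lowest and any separate gene are named, and the others named were chosen after their values were seen. The members and lists were chosen with earlier results of these data known. Promoters came from RefSeq (GRCh38.p14), transcripts from GENCODE 29, and alignments from Biopython 1.88 under Python 3.11.15. Alternatives changed the pseudocount, the filter and the scaling. Values of some listed genes are not reported here.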

Additional observations from a re-analysis of the deposited data

How the results depend on the processing

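Counts of members past 1.5-fold stayed at 4 higher and 0 lower under pseudocounts of 0.1 and 0.5, filters of 5 FPKM and none, and 3 other scalings. Separate members numbered 4 under both other filters, and 3 (CIITA, MICA and MICB) after scaling to a median ratio of 1 and after leaving out short RNA rows. Pseudocounts and quantile normalization were not tried for separate intervals. By the rule that a difference exceed its half-width, 7 members were higher, against 7.66% of all rows. They included ERAP2, measured through the BMH-21 group alone. The median of the 5 regulators changed sign, to -0.0144 with the median ratio set to 1, -0.0382 without short RNA rows and -0.0497 under quantile normalization, all far inside its typical half-width of 0.35. The cofactors of MHC promoters then held 0 separate and higher genes under both of the first scalings, and class I-like molecules held 1 separate and lower gene without short RNA rows. The cause was not tested. The medians ranged from 0.01 to 0.12 for class I, from 0.15 to 0.23 for class II and from 0.73 to 0.89 for MICA and MICB, and the CIITA difference from 1.38 to 1.55. No paired analysis was possible because the columns are an estimate and its bounds per group, and for the same reason no replicate could be left out. Depth is unknown, and bounds widened at low level, so overlap does not show equal levels.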

Other observations

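Genes beside CIITA on chromosome 16 were read from the RefSeq gene order after the CIITA value had been seen. Of the 4 protein-coding genes on either side, EMP2 (22.8 FPKM in control and 23.1 FPKM with BMH-21), NUBP1 (23.1 and 23.0 FPKM), DEXI and CLEC16A (4.66 and 4.93 FPKM) were measured, and all overlapped. SOCS1, the feedback inhibitor of interferon signalling that lies 3 genes away, was under the limit of 1 FPKM, at 0.363 FPKM (0.0432 to 0.683) and 0.958 FPKM (0.427 to 1.49).

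Around MICA and MICB on chromosome 6, TCF19, a growth-regulated gene 4 places from MICA, was separate and lower, at 11.8 FPKM (9.50 to 14.0) in control and 6.41 FPKM (5.11 to 7.72) in BMH-21. DDX39B, an RNA helicase of messenger RNA export on the other flank, was at 71.0 and 68.0 FPKM and overlapped. BRD2, a bromodomain gene 4 places from TAP1, was at 33.5 and 40.8 FPKM and overlapped.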
